A study of Homo sapiens with 31 samples.

Results

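This account sets Caco-2 cells exposed to zinc oxide (ZnO) nanomaterial in a microfluidic gut-on-chip beside Caco-2 cells exposed to ZnO on Transwell inserts, across all genes measured. The arrays were chosen by their sample titles, which gave 8 of the 31 arrays of the series: 4 from the chip and 4 from Transwell. Caco-2 cells come from a human colorectal adenocarcinoma and, once confluent, polarise and take on features of enterocytes. The chip ZnO group was seeded at 75000 cells per cm2, kept until day 21 under continuous flow (100 µL/h, shear stress near 0.002 dyne/cm2), and exposed for 6 h to 80 µg/mL ZnO. The suspension filled its upper chamber within some 42 min, after which flow ceased. The Transwell ZnO group was seeded at the same density, kept without flow for 21 days and exposed for 6 h to 500 µL of 10 µg/mL ZnO on the apical side. Both groups carried no other treatment, and per the labels the concentrations were modelled to deposit equal doses. Culture system, nominal concentration, volume and filling therefore go together, and their parts in any difference cannot be told apart. The cells were of 1 line between passages 29 and 45, and the labels number the replicates without saying whether they came from separate cultures, so p-values measure the spread between these samples, which may be technical. In bulk RNA of this kind, fewer cells of a type and less RNA per cell cannot be told apart.

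Values are on the log2 scale, normalised by the authors with RMA, and 22395 genes had a value. A gene passed when its Benjamini-Hochberg adjusted p from limma was below 0.05, and differences are chip ZnO minus Transwell ZnO on the log2 scale, given with their standard error and n = 4 arrays per group. Medians of the 8 arrays lay between 3.243 and 3.333. Where the mean of a group fell under the medians of all its arrays, the gene was not shown above background in that group, and its difference is a lower bound at best. Arrays of the chip correlated with each other at 0.980 to 0.989 and those of Transwell at 0.989 to 0.992, while pairs across the systems correlated at 0.952 to 0.966. The groups separated on the first principal component (61.0% of the variance), with the chip arrays at -55.0 to -38.8 and the Transwell arrays at 42.2 to 45.1. Chip replicate 1 stood apart on the second component (11.4%) at 42.5, against -24.2 to -3.5 for the other chip arrays and -1.6 to 5.4 for Transwell. In chip replicate 1, 301 genes read at least 1 above the mean of the other chip arrays and 321 at least 1 below it. At most 150 and 142 did so in any other chip array.

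Of the epithelial markers, EPCAM read 11.60 ± 0.08 in the chip and 11.62 ± 0.04 in Transwell (SD, n = 4 each), and CDH1 12.11 ± 0.08 and 12.01 ± 0.10, so both groups carried an epithelial profile. Of 13 measured epithelial markers 3 were higher and 4 lower in the chip. The lower ones were PHGR1, LGALS4, VIL1 and CDX2, and the higher ones KRT19, KRT8 and KRT18. KRT8 and KRT18 did not pass without chip replicate 1 or without Transwell replicate 1, 2 or 3, which left KRT19 as the 1 higher marker there. None of 19 markers of goblet, Paneth, enteroendocrine, tuft and M cells passed by limma, except 1 when Transwell replicate 4 was left out, and 9 of them read below the array medians in both groups. The mean level of these 19 was 3.09 to 3.29 over the chip arrays and 2.97 to 3.24 over the Transwell arrays. Among 13 markers of fibroblasts, endothelial and immune cells, VIM was higher by 1.36 ± 0.13 and CD68 by 0.98 ± 0.14, and LUM was lower (-1.17 ± 0.18). The mean level of those 13 was 4.29 to 4.42 in the chip and 4.05 to 4.23 in Transwell, with the defining markers PTPRC, CD3E, DCN, COL1A2 and KDR below the array medians in both groups. The part of other cells in the results was not tested.

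Zinc oxide particles release zinc ions, and cells meet free zinc with metallothioneins, short proteins rich in cysteine that hold zinc and other metals. Their genes are switched on by the zinc-sensing transcription factor MTF1, which binds metal response elements in their promoters, and zinc transporters of the SLC30 family move the metal out of the cytosol. Differentiated Caco-2 cells are also known for a small-intestinal programme of brush border enzymes, lipoprotein assembly and bile acid handling that they acquire after confluence.

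Promoters were searched for TGCNCNC, a loose form of the metal response element core that is called the core here. Some matches therefore fall outside the stricter core of these elements. The RefSeq promoter table of GRCh38.p14 held 5 of the metallothionein genes, and 4 of their upstream windows are printed because they carry the cores beside the genes with large and small differences described next. Each window is the 250 bases before the gene's start on chromosome 16, plus strand, 5′ to 3′, with every match to the core on either strand in capitals, overlapping matches counted: MT1B at chr16:56651636-56651885 (5 matches), MT1H at chr16:56669564-56669813 (8), MT1X at chr16:56682220-56682469 (4) and MT2A at chr16:56608334-56608583 (7).
MT1B: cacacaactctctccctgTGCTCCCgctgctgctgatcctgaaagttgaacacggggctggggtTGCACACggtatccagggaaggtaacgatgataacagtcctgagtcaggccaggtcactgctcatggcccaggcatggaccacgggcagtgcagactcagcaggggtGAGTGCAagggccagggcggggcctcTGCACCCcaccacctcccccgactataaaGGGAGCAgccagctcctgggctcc
MT1H: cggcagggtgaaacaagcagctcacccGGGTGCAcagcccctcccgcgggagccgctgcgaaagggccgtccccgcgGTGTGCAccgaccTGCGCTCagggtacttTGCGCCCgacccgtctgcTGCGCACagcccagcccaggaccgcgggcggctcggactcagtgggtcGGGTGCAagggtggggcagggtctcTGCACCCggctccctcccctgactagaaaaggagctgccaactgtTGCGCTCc
MT1X: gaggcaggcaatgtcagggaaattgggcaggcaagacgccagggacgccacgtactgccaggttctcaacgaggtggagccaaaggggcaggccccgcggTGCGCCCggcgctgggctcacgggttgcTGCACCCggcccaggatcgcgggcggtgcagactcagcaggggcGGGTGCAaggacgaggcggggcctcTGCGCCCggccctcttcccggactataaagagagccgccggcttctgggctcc
MT2A: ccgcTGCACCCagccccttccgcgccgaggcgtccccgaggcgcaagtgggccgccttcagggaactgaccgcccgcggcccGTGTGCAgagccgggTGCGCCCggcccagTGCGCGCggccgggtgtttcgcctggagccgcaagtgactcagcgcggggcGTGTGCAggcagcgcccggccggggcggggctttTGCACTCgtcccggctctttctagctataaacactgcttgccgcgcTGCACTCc
All 5 promoters, MT4 included, held 3 or more matches to this loose core. The same held for 5.74% of the 27305 promoters of the same length in the table, of which 48.4% held at least 1. MT1H with 8 matches and MT1B with 5 belong to genes with large differences, and MT2A with 7 and MT1X with 4 to genes with small ones. A match of letters is a description and not a site of binding.

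Metallothioneins were higher in the chip. Of 10 measured members of the 11 listed, 8 passed in the upward direction and 0 in the downward direction, against 11.8% of all genes higher and 14.4% lower. Their median difference was 2.08, against 0.016 over all genes. This list and those below were chosen with earlier results of these data known, so their shares are descriptions and not tests. MT1B read 7.90, 8.69, 8.33 and 9.35 in the chip arrays, against 2.06, 2.05, 2.99 and 2.67 in the Transwell arrays. It was higher by 6.13 ± 0.31 (adjusted p = 9.07e-07, limma), and since it read below the array medians in Transwell this is a lower bound at best. MT1M read 7.38, 9.69, 9.32 and 10.15 in the chip, against 4.30, 4.11, 4.41 and 4.47 in Transwell, and was higher by 4.81 ± 0.48. The lowest chip array of both genes was replicate 1, which still lay far above every Transwell array.

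MT1H read 8.78, 10.46, 9.83 and 10.67 in the chip, against 6.36, 6.15, 5.90 and 5.75 in Transwell (3.89 ± 0.35). MT1G read 9.71, 10.61, 10.20 and 11.16 in the chip, against 6.91, 6.86, 7.33 and 7.17 in Transwell (3.35 ± 0.27). MT1E read 6.97, 7.23, 8.15 and 7.37 in the chip, against 4.10, 3.14, 5.0 and 3.95 in Transwell (3.38 ± 0.36). In these 3 as well the groups did not overlap and chip replicate 1 was the lowest chip array. A second set of members differed far less. MT2A, the main human metallothionein in many tissues, read 8.75, 8.95, 8.42 and 8.73 in the chip, against 8.19, 8.02, 8.10 and 8.08 in Transwell (0.62 ± 0.13, adjusted p = 0.00528, limma). MT1X was higher by 0.50 ± 0.12 and MT4 by 0.81 ± 0.17. MT1F read 10.46, 11.21, 10.91 and 11.29 in the chip, against 10.47, 10.82, 10.93 and 10.89 in Transwell, overlapping groups that did not pass (0.19 ± 0.19, adjusted p = 0.539, limma). MT3, a member known from brain, read below the array medians in both groups. Metallothionein genes are nearly identical in sequence, so a probe may bind more than 1 of them and values of single members are uncertain.

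**Figure D1:**
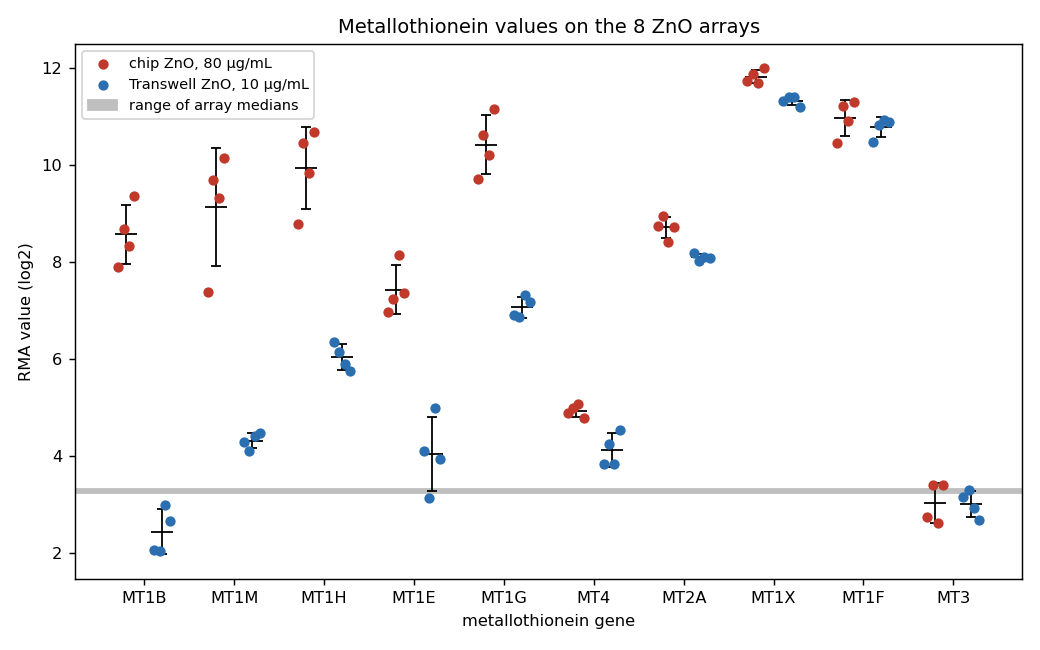
Log2 RMA values of the 10 measured metallothionein genes (x axis) on each of the 8 ZnO arrays (y axis), chip ZnO in red and Transwell ZnO in blue, with the mean and SD of 4 arrays in black and the range of the array medians as a grey band. MT1B, MT1M, MT1H, MT1E and MT1G are separated by 3.35 to 6.13 on the log2 scale, whereas MT1F overlaps between the groups.

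Zinc transporters did not move in 1 direction. Of the 25 genes listed with MTF1, 4 were higher (16%) and 5 lower (20%), not far from the shares of all genes, with a median difference of 0.07. SLC30A1, the exporter of zinc at the plasma membrane and an MTF1 target, read 10.71, 11.16, 11.23 and 11.41 in the chip, against 10.00, 10.17, 10.27 and 10.28 in Transwell (0.94 ± 0.16, adjusted p = 0.00131, limma). Every chip array lay above every Transwell array. SLC39A4, the importer that takes up dietary zinc, read 8.18, 7.97, 8.0 and 8.09 in the chip, against 7.09, 7.08, 7.15 and 7.34 in Transwell (0.89 ± 0.11). SLC30A2 and SLC39A11 were higher by 1.07 and 0.94. SLC30A10, a manganese exporter, read 2.47, 2.26, 2.08 and 2.14 in the chip, below the array medians, against 3.52, 4.16, 4.67 and 2.73 in Transwell (-1.53 ± 0.34). SLC39A14, an importer of zinc, iron and manganese, was lower (-0.94), as were SLC39A2, which lay under the array medians in the chip, SLC30A9 and SLC30A6. With 1 array left out the count of lower transporters ran from 3 to 6. It was 3 without chip replicate 3 and without Transwell replicate 1 or 4. MTF1 itself differed by 0.01 and did not pass.

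Over all genes 5868 passed (26.2%), of which 2650 had higher and 3218 lower values in the chip. When each array was centred on its 75th percentile, 3042 were higher and 2464 lower, so the share of passing genes that were higher was 55.2%, against 45.2% with the values as deposited. That centring moved the median difference of all genes to 0.089. Without chip replicate 1, 2672 were higher and 3017 lower. The median absolute difference of the passing genes was 0.77, and 864 were higher and 949 lower by at least 2-fold, with 26 higher and 43 lower by at least 8-fold. Groups did not overlap for 29.4% of all genes. The 30 genes with the largest differences, 15 in each direction, were named by a rule that required separated groups and a mean above the array medians in the higher group, so their separation is no finding. All 30 passed without any 1 array.

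Besides 4 metallothioneins, MT1B, MT1M, MT1H and MT1E, the genes with the largest rises were of several kinds. PLAUR, the receptor of the protease urokinase, read 9.55, 9.37, 8.76 and 9.34 in the chip, against 5.23, 4.84, 5.12 and 4.90 in Transwell (4.23 ± 0.18, adjusted p = 3.31e-07, limma). Its 4 chip arrays lay within a range narrower than 1 and clear of Transwell. GADD45B, a stress-inducible regulator of MAP kinase signalling, read 9.49, 8.87, 9.14 and 9.34 in the chip, against 5.81, 5.27, 5.66 and 5.87 in Transwell (3.56 ± 0.17). NR4A1, an orphan nuclear receptor induced within minutes of many stimuli, read 8.44, 7.75, 8.10 and 8.04 in the chip, against 4.86, 4.86, 4.29 and 4.44 in Transwell (3.47 ± 0.18). CYP1A1, the monooxygenase induced through the aryl hydrocarbon receptor, read 9.98, 10.27, 10.59 and 10.54 in the chip, against 7.23, 7.07, 6.59 and 7.01 in Transwell (3.38 ± 0.18). Each of these 3 had separated groups.

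UPK1B, a uroplakin of the urothelial surface, was higher by 3.74 ± 0.20 with chip arrays at 6.77, 7.31, 6.84 and 7.30 and Transwell arrays at 3.77, 3.03, 3.41 and 3.05. DHRS2, a short-chain dehydrogenase, read 6.56, 7.31, 7.99 and 7.74 in the chip, against 3.67, 3.49, 3.33 and 3.88 in Transwell (3.81 ± 0.27). QSOX1, an enzyme that forms disulfide bonds in secreted proteins, read 7.29, 7.86, 7.77 and 7.86 in the chip, against 4.27, 4.14, 4.11 and 4.52 in Transwell (3.43 ± 0.16). Chip replicate 1 was the lowest chip array of all 3 of these genes. BNIP5 was higher by 3.91 ± 0.22 and EMP3, an epithelial membrane protein, by 3.56 ± 0.14. ETS1, a transcription factor, was higher by 3.57 ± 0.27, and TGFB2, a transforming growth factor, by 3.40 ± 0.15, both read below the array medians in Transwell.

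Of the genes with the largest falls, FABP2, the intestinal fatty acid binding protein, read 1.51, 1.53, 1.84 and 1.83 in the chip, below the array medians, against 7.17, 7.06, 7.04 and 7.37 in Transwell (-5.48 ± 0.13, adjusted p = 1.35e-08, limma). CPS1, which makes carbamoyl phosphate for the urea cycle, read 4.61, 3.90, 4.93 and 4.77 in the chip, against 9.73, 9.67, 9.76 and 9.54 in Transwell (-5.12 ± 0.20). SI, the sucrase-isomaltase of the brush border, read 8.12, 6.52, 5.85 and 7.13 in the chip, against 11.32, 11.27, 11.43 and 11.27 in Transwell (-4.41 ± 0.38). The chip arrays of SI spread over more than 2 on the log2 scale while those of Transwell lay within 0.2, and chip replicate 1 was the highest of the chip. CUBN, the cubilin receptor for the intrinsic factor and vitamin B12 complex, read 4.56, 3.37, 4.08 and 4.20 in the chip, against 8.19, 8.34, 8.35 and 7.99 in Transwell (-4.16 ± 0.22). SLC17A4, an organic anion and phosphate transporter, differed by -4.74 ± 0.17, and ADH4, an alcohol dehydrogenase, by -4.01 ± 0.13.

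Enzymes of steroids and lipids made up several of the others. HSD17B2, which oxidises estradiol and testosterone, read 4.94, 6.61, 5.85 and 5.74 in the chip, against 9.63, 9.65, 9.59 and 9.52 in Transwell (-3.81 ± 0.28). HSD3B1, an enzyme of steroid hormone synthesis, read 3.40, 3.23, 4.59 and 3.79 in the chip, against 7.56, 7.56, 7.53 and 7.35 in Transwell (-3.75 ± 0.25). In both genes the chip arrays spread more widely than the Transwell arrays. AGMO, which cleaves ether lipids, differed by -4.23 ± 0.27, UGT2B17, a glucuronosyltransferase of androgens, by -4.81 ± 0.22 and CYP7A1, the first and controlling step of bile acid synthesis, by -4.40 ± 0.14. In the chip UGT2B17 and CYP7A1 fell under the array medians, as did C17orf78 (-3.92 ± 0.33). ADGRG7, an adhesion receptor (-4.36 ± 0.19), TM4SF20, a membrane-spanning protein (-4.08 ± 0.18), and SLC23A3, a relative of the vitamin C transporters (-3.78 ± 0.24), completed the 15.

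**Figure D2:**
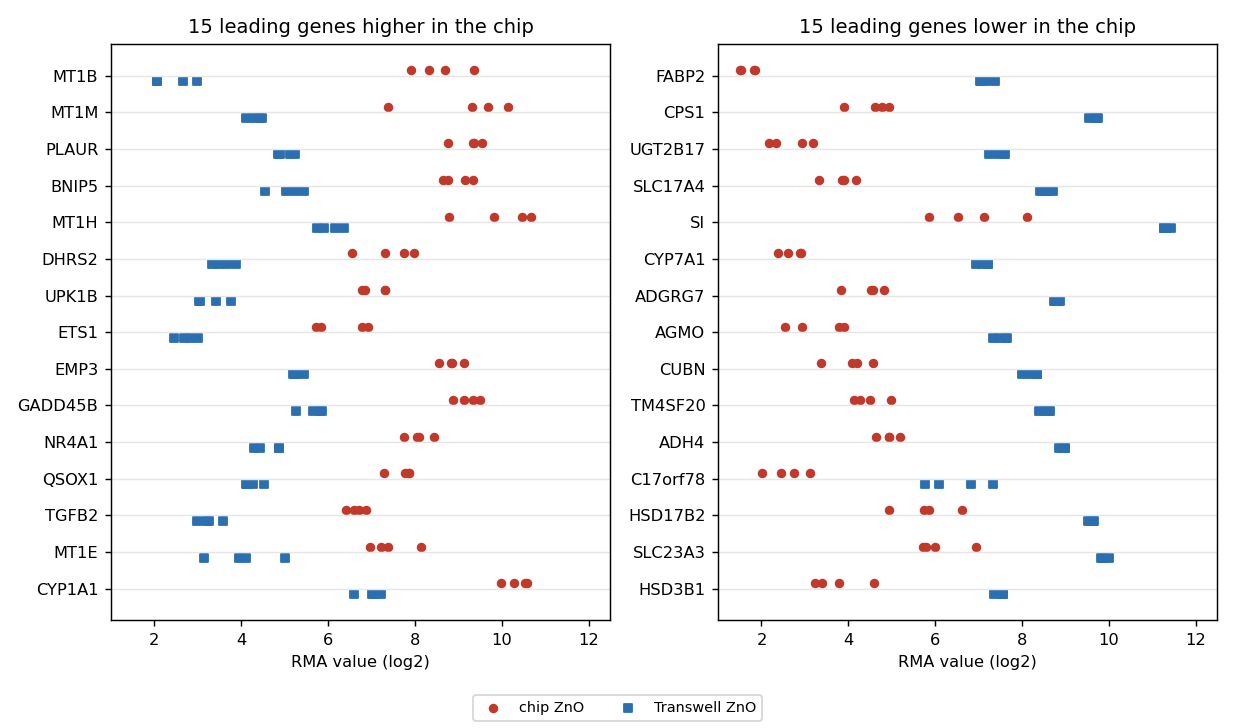
Log2 RMA values (x axis) of the 15 genes with the largest rise and the 15 with the largest fall in chip ZnO (red circles) against Transwell ZnO (blue squares), 1 point per array. The groups of each gene lie apart, as the choice of the genes required, and the chip points of SI, HSD17B2 and HSD3B1 spread more widely than their Transwell points.

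Heat shock genes were higher as a group, led by small heat shock proteins. Of 16 measured members of the 24 listed, 10 were higher (62.5%) and 2 lower, with a median difference of 0.91. CRYAB, the small chaperone alpha-B crystallin, read 7.49, 5.84, 6.71 and 5.79 in the chip, against 3.00, 3.17, 3.21 and 3.3 in Transwell, where it was below the array medians (3.29 ± 0.32, adjusted p = 4.72e-05, limma). HSPB1, the HSP27 chaperone, read 11.34, 11.12, 11.27 and 11.22 in the chip, against 9.37, 9.56, 9.37 and 9.35 in Transwell (1.83 ± 0.11). HSPA6, a strictly inducible HSP70, read 5.97, 5.08, 6.09 and 6.53 in the chip, against 4.76, 3.70, 3.53 and 3.62 in Transwell (2.02 ± 0.33). Groups lay apart in each of the 3, with Transwell replicate 1 of HSPA6 well above the other Transwell arrays. HSPB8 was higher by 2.46, a lower bound at best since it read below the array medians in Transwell, and its partner BAG3 by 1.18. The constitutive HSP90AB1 differed by -0.03, HSPH1 by -0.07 and STIP1 by -0.10, and none of these passed. DNAJA1, an HSP40 co-chaperone, was lower (-0.46), and so was HSPA1L (-0.44), which did not pass without Transwell replicate 2. CHORDC1, an HSP90 co-chaperone, read 10.05, 8.11, 8.24 and 7.68 in the chip, against 7.14, 7.79, 7.47 and 7.66 in Transwell, and did not pass (1.01 ± 0.42, adjusted p = 0.112, limma), with chip replicate 1 far above the rest. The heat shock element core GAANNTTC, a palindrome, occurred in the 250 bases upstream of 10 of 22 listed genes in the promoter table, against 5.85% of all promoters. Those measured were HSPA6, HSPB1 and HSPB8, which were higher, HSPA1L and DNAJA1, which were lower, and CHORDC1, which did not pass. HSPA1A, HSPA1B, HSPA8 and DNAJB6 had no value of their own, and the HSPA1A and HSPA1L windows cover nearly the same stretch of chromosome 6.

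Genes of the integrated stress response, which follows phosphorylation of the initiation factor eIF2, were also mostly higher. Of 23 measured, 13 were higher (56.5%) and 2 lower, PSPH and STC2, with a median of 0.62. STC2 did not pass without chip replicate 1, 3 or 4 or without Transwell replicate 1, 2 or 3, which left 1 lower. ATF3, a stress-induced transcription factor, read 7.42, 7.60, 7.25 and 7.63 in the chip, against 5.06, 4.34, 4.29 and 4.71 in Transwell (2.87 ± 0.18). DDIT3, the CHOP factor of prolonged endoplasmic reticulum stress, read 6.91, 6.67, 6.90 and 7.39 in the chip, against 4.21, 4.70, 5.45 and 4.15 in Transwell (2.34 ± 0.27). In both genes the lowest chip array exceeded the highest Transwell array. DDIT4, an inhibitor of mTORC1, was higher by 2.31, PPP1R15A, which restores eIF2, by 2.03 and TRIB3, a pseudokinase, by 1.52. ATF4 itself differed by 0.19 and did not pass. Endoplasmic reticulum chaperones did not follow: of 17 measured, 2 were higher, DNAJB9 (0.88) and EDEM1 (0.48), 1 was lower, DNAJB11 (-0.46), which did not pass without Transwell replicate 2 or 4 (2 were lower without chip replicate 3), and HSPA5, the chaperone BiP, differed by -0.06 without passing.

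Targets of NRF2, the factor that answers oxidants and electrophiles, were higher in 14 of 27 cases (51.9%) and lower in 4, with a median of 0.40. With 1 array left out 11 to 14 were higher. TXNRD1, the cytosolic thioredoxin reductase, read 8.32, 8.14, 8.08 and 7.98 in the chip, against 6.57, 6.58, 6.48 and 6.75 in Transwell (1.54 ± 0.12, adjusted p = 1.03e-05, limma). HMOX1, the haem oxygenase, read 9.28, 9.43, 9.60 and 9.20 in the chip, against 8.78, 8.89, 8.70 and 8.82 in Transwell (0.58 ± 0.12). Neither gene overlapped between the groups. TRIM16 was higher by 1.77, GCLM, a subunit of the enzyme that starts glutathione synthesis, by 1.18 and SRXN1, sulfiredoxin, by 1.08. NQO1 differed by 0.14 and did not pass, and the aldo-keto reductases AKR1C3 (-1.43) and AKR1C2 (-0.87) were lower, as were ABCC2 and KEAP1. Of 12 enzymes that remove peroxide and superoxide 2 were higher (16.7%) and 1 lower (8.33%), with a median of 0.03. These shares were not far from the 11.8% and 14.4% of all genes. GPX1 was higher (0.84), PRDX2 was lower (-0.53) and SOD1 was higher by 0.36. SOD1 did not pass without chip replicate 3 or 4 or without Transwell replicate 1, 2 or 3, and 2 were lower without chip replicate 4.

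Immediate early genes, which growth factors and stress switch on within minutes without new protein synthesis, gave one of the highest shares. Of 28 measured, 23 were higher (82.1%) and 1 lower, with a median of 1.67, and GADD45B and NR4A1 are among them. In the pair kept in control medium, described below, 22 were higher and 1 lower. FOS, a subunit of the AP-1 transcription factor, read 8.64, 8.18, 8.36 and 8.53 in the chip, against 6.21, 6.31, 6.24 and 6.20 in Transwell (2.19 ± 0.13). EGR1, an early zinc finger factor, read 9.97, 9.93, 10.37 and 10.18 in the chip, against 8.11, 8.37, 7.95 and 8.43 in Transwell (1.90 ± 0.15). The 4 values of each group lay close together in both genes. FOSL1 was higher by 2.64, IER5 by 2.74, the phosphatase DUSP5 by 2.70 and JUN by 1.68. MYC, the growth regulator and Wnt target, ran the other way: it read 7.54, 7.61, 7.45 and 7.38 in the chip, against 8.51, 8.57, 8.39 and 8.54 in Transwell (-1.01 ± 0.11, adjusted p = 8.78e-05, limma). The AP-1 site TGANTCA, searched on both strands, occurred in 0 of 22 listed genes in the promoter table, against 6.60% of all promoters, which says only that these letters are not in these windows.

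**Figure D3:**
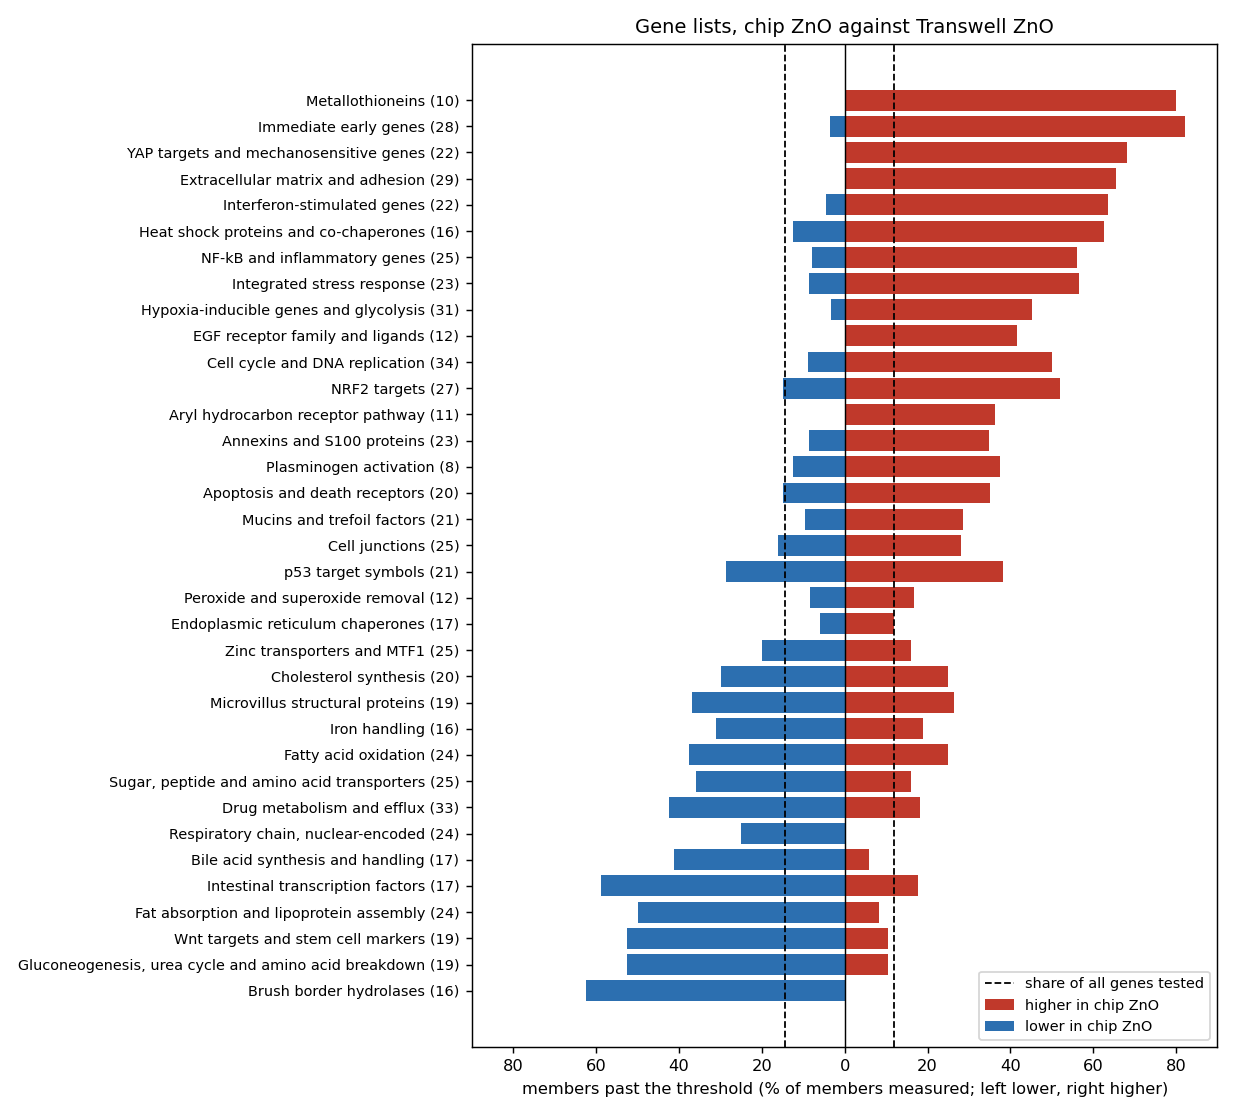
Share of the measured members of each gene list that passed in chip ZnO against Transwell ZnO (x axis, % of members), higher in red to the right and lower in blue to the left, with the number measured in brackets and dashed lines at the shares of all genes tested, 11.8% higher and 14.4% lower. Immediate early genes (82.1% higher) and metallothioneins (80.0% higher) lie at one end. The list of brush border hydrolases (62.5% lower, the receptor CUBN counted) lies at the other.

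Targets of YAP, the coactivator that responds to cell shape and stiffness, and related mechanosensitive genes were higher in 15 of 22 cases (68.2%) and lower in 0 by limma, or in 1 without chip replicate 3 or Transwell replicate 1. ANKRD1, a YAP target, read 9.19, 10.22, 10.20 and 10.03 in the chip, against 6.65, 6.78, 6.22 and 7.26 in Transwell (3.18 ± 0.26). CCN1, a secreted matrix protein, read 9.39, 8.02, 8.04 and 8.42 in the chip, against 5.65, 5.53, 5.38 and 5.63 in Transwell (2.92 ± 0.27). Chip replicate 1 was the lowest chip array of ANKRD1 and the highest of CCN1. PTGS2, the inducible cyclooxygenase, read 7.54, 7.95, 7.08 and 7.59 in the chip, against 4.50, 4.45, 4.40 and 4.65 in Transwell (3.04 ± 0.17). CCN2 was higher by 1.06, VCL, vinculin of focal adhesions, by 1.44 and TAGLN, an actin-binding protein, by 1.98. The flow-responsive factor KLF2 differed by 0.07 and EDN1 by 0.34, and neither passed.

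Matrix and adhesion genes were higher in 19 of 29 cases (65.5%) and lower in 0, with a median of 0.91. MMP9, a gelatinase, read 6.91, 6.57, 5.47 and 6.58 in the chip, against 3.34, 2.94, 2.84 and 3.11 in Transwell (3.33 ± 0.27). MMP7, the epithelial matrilysin, read 5.31, 5.82, 5.83 and 6.35 in the chip, against 3.25, 3.15, 2.83 and 3.04 in Transwell (2.76 ± 0.20). Both proteases read below the array medians in Transwell. ITGB4, the hemidesmosome integrin, read 8.76, 8.99, 8.98 and 8.80 in the chip, against 7.09, 7.20, 7.24 and 6.79 in Transwell (1.80 ± 0.13). TGFB1 was higher by 1.69, and fibronectin, FN1, differed by 0.10 without passing. In the plasminogen system 3 of 8 measured genes were higher and 1 lower, S100A10, with a median of 0.11. PLAU, urokinase itself, was higher by 1.75 and SERPINE2 by 1.73 beside PLAUR, whereas PLAT, PLG, SERPINB5 and ANXA2 did not pass. ANXA1, an annexin that binds phospholipids, read 7.83, 8.09, 7.93 and 8.24 in the chip, against 5.14, 4.80, 5.01 and 5.20 in Transwell (2.98 ± 0.14). Of 23 annexins and S100 proteins 8 were higher (34.8%), among them S100P (2.02), and 2 lower (8.7%), against 11.8% and 14.4% of all genes. The lower ones were ANXA13 (-0.86) and S100A10 (-0.49), the partner of ANXA2 in plasminogen binding. ANXA13 did not pass without Transwell replicate 1, 2 or 3, nor S100A10 without chip replicate 3 or 4 or Transwell replicate 2, 3 or 4.

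In the EGF family 5 of 12 genes were higher (41.7%, against 11.8% of all genes) and 0 lower. HBEGF, a membrane-bound ligand, read 7.15, 6.72, 7.11 and 6.66 in the chip, against 4.16, 4.26, 4.05 and 3.93 in Transwell (2.81 ± 0.15, adjusted p = 1.18e-06, limma). EREG, a second ligand, was higher by 1.76, the receptor EGFR by 0.96 and its feedback inhibitor ERRFI1 by 1.80. TGFA read 4.38, 4.04, 4.17 and 4.15 in the chip, against 3.73, 3.89, 3.77 and 3.86 in Transwell (0.37 ± 0.12). Its groups lay apart by little, and it did not pass without chip replicate 1, 3 or 4 or without any 1 of the Transwell arrays.

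Genes of NF-kB signalling were higher in 14 of 25 cases (56.0%) and lower in 2, CXCL2 and NFKB1. Without Transwell replicate 1 the lower ones numbered 4, and without Transwell replicate 2 there was 1. NFKB2, a subunit of the noncanonical pathway, read 8.63, 8.19, 8.30 and 8.45 in the chip, against 5.73, 5.93, 5.77 and 5.48 in Transwell (2.66 ± 0.14). ICAM1, the adhesion receptor of leukocytes, read 10.16, 9.69, 9.57 and 9.91 in the chip, against 7.52, 7.46, 7.35 and 7.25 in Transwell (2.44 ± 0.15). In both genes the groups were more than 1 apart. The feedback inhibitors TNFAIP3 (1.86) and NFKBIA (1.76) and the cytokine TNF (1.91) were higher too. The chemokines did not move as 1 group: CCL20 was higher by 1.36, CXCL2 was lower (-0.98), and CXCL8 (0.37), CXCL1 (0.29) and CCL2 (0.14) did not pass, CXCL8 and CCL2 reading below the array medians in both groups.

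Interferon-stimulated genes were higher in 14 of 22 cases (63.6%) and lower in 1, MX2 (-0.67), which lay under the array medians in the chip. With 1 array left out 11 to 14 were higher. IFIT2, which binds viral RNA, read 5.27, 6.25, 5.35 and 5.22 in the chip, against 2.80, 1.48, 3.09 and 1.53 in Transwell, where it was below the array medians (3.29 ± 0.38). IRF1 was higher by 2.23, IFIT3 by 2.21, IFI27 by 2.18 and ISG15 by 1.76. OAS1 differed by 0.41 and MX1, below the array medians in both groups, by 0.44, and neither passed.

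The list of brush border hydrolases, digestive enzymes of the microvillus membrane, also held the receptor CUBN, which is not an enzyme. Its members were lower in 10 of 16 cases (62.5%), CUBN counted, and higher in 0, with a median of -1.01. Besides SI and CUBN the lower ones were ASAH2, a ceramidase (-3.22), NAALADL1, a peptidase (-2.22), MGAM, maltase-glucoamylase (-1.87), and LCT, lactase (-1.68). ANPEP, aminopeptidase N (-1.59), ENPP3, TREH and DPP4 (-0.43) completed the 10. ASAH2 lay under the array medians in the chip, so its difference is a lower bound at best. The intestinal alkaline phosphatase ALPI differed by -0.42 and ACE by -0.10, and neither passed. Of 25 sugar, peptide and amino acid transporters 9 were lower (36.0%) and 4 higher. SLC5A1, the sodium-coupled glucose transporter SGLT1, read 4.16, 3.79, 4.05 and 3.91 in the chip, against 5.72, 5.27, 5.72 and 5.79 in Transwell (-1.65 ± 0.15, adjusted p = 2.47e-05, limma). Every Transwell array exceeded every chip array by more than 1. SLC7A9, part of the cystine transporter, was lower (-2.98), with its partner SLC3A1 (-1.82), and the fructose transporter SLC2A5 too (-2.25). SLC2A3, a glucose transporter of many growing cells, was higher by 1.44, and the peptide transporter SLC15A1 differed by -0.04 without passing.

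Fat absorption and lipoprotein assembly genes were lower in 12 of 24 cases (50.0%) and higher in 2. MTTP, which loads lipid onto apolipoprotein B, read 6.29, 6.51, 5.18 and 5.59 in the chip, against 9.45, 9.44, 9.63 and 9.49 in Transwell (-3.61 ± 0.26). APOA4, an apolipoprotein of chylomicrons, read 8.52, 8.05, 7.07 and 8.68 in the chip, against 10.08, 9.81, 9.87 and 9.33 in Transwell (-1.70 ± 0.32). The groups stayed apart in both, with the wider spread in the chip. APOB was lower (-1.06), as were the esterifying enzymes SOAT2 (-1.45) and DGAT1 (-1.01). FABP1 differed by -0.52 and did not pass, whereas NPC1L1, the cholesterol uptake receptor, was higher by 0.73 and MOGAT3 by 0.65. In bile acid handling 7 of 17 were lower (41.2%): CYP7A1, SULT2A1, a sulfotransferase (-3.66), SLC10A2, the apical bile acid transporter (-2.46), AKR1D1 (-2.45), CYP27A1 (-1.21), NR0B2 (-0.80) and SLC51B (-0.78). BAAT, which conjugates bile acids, was higher by 1.16, and SLC10A1 differed by 0.84 without passing; without chip replicate 2 there were 2 higher genes.

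Of 19 genes of gluconeogenesis, the urea cycle and amino acid breakdown 10 were lower (52.6%) and 2 higher. Next to CPS1 stood G6PC1, glucose-6-phosphatase (-3.69, below the array medians in the chip), FBP1, fructose bisphosphatase (-2.75), TDO2, a tryptophan dioxygenase (-1.95), and OAT, ornithine aminotransferase (-1.94). PCK1, the cytosolic PEP carboxykinase of the same pathway, ran the other way: it read 7.10, 5.79, 6.23 and 7.19 in the chip, against 4.94, 4.67, 4.61 and 5.03 in Transwell (1.76 ± 0.29, adjusted p = 0.00112, limma). HPD, a tyrosine catabolic enzyme, was the second higher gene (0.55, below the array medians in Transwell) and did not pass without chip replicate 1, 2 or 4 or without Transwell replicate 2, 3 or 4.

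**Figure D4:**
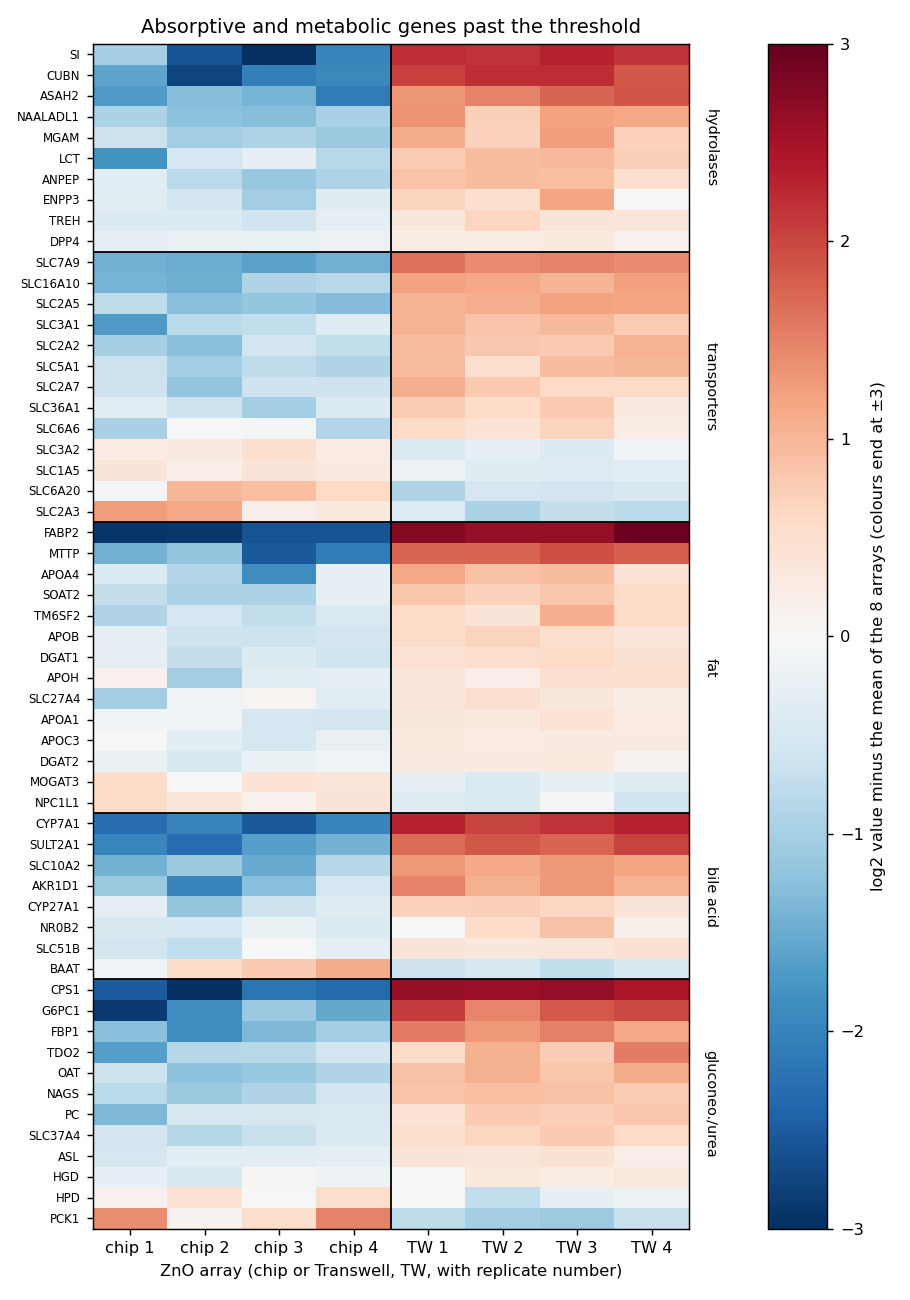
Passing members of 5 lists of absorptive and metabolic genes (down the page) on the 8 ZnO arrays (across, chip on the left and Transwell, TW, on the right), coloured by the log2 value minus the mean of the 8 arrays, with colours ending at ±3. Most are blue in the chip, and SLC2A3, SLC3A2, NPC1L1 and PCK1 are among those that are red there.

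Intestinal transcription factors were lower in 10 of 17 cases (58.8%) and higher in 3. NR5A2, which drives bile acid and steroid genes, read 6.17, 7.20, 7.06 and 6.56 in the chip, against 8.75, 8.78, 8.94 and 8.88 in Transwell (-2.09 ± 0.21). CDX2, the master factor of intestinal identity, read 7.13, 7.20, 7.42 and 7.22 in the chip, against 8.31, 7.81, 7.84 and 7.89 in Transwell (-0.72 ± 0.14). The gap between the groups was wide for NR5A2 and small for CDX2. FOXA1 (-1.86), MAF (-1.78), PRDM1 (-1.70) and GATA4 (-1.39) were lower, and ELF3, an epithelial ETS factor, was higher by 1.34, CREB3L3 by 0.99 and TCF7L2 by 0.64. Wnt targets and stem cell markers were lower in 10 of 19 cases (52.6%) and higher in 2, CD44 (1.06) and EPHB3 (0.86). LGR5, the R-spondin receptor of crypt stem cells, read 3.76, 4.97, 4.98 and 4.22 in the chip, against 5.78, 6.16, 5.70 and 6.54 in Transwell (-1.56 ± 0.29). The feedback regulators ZNRF3 (-1.53), AXIN2 (-1.39) and RNF43 (-1.30) were lower alongside it, while the stem cell marker OLFM4 read below the array medians in both groups.

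Microvillus structural proteins were divided, with 5 of 19 higher (26.3%) and 7 lower (36.8%), against 11.8% and 14.4% of all genes. VIL1, the actin-bundling villin, read 10.12, 10.35, 10.31 and 10.43 in the chip, against 11.12, 11.15, 11.12 and 10.92 in Transwell (-0.77 ± 0.12). ANKS4B (-1.25), CALML4 (-1.15) and USH1C (-0.73) of the complex that links microvillus tips were lower with it, whereas MYO7B of the same complex was higher by 0.93 and BAIAP2L1 by 1.05. Of 25 junction genes 7 were higher, among them CLDN4 (1.03) and TJP1 (0.76), and 4 lower, among them DSC2 (-0.89) and CLDN1 (-0.64). Of 21 mucin and trefoil genes 6 were higher (28.6%) and 2 lower (9.52%, against 14.4% of all genes). TFF1, a trefoil peptide of mucosal repair, read 10.01, 10.03, 10.23 and 10.06 in the chip, against 8.44, 8.46, 8.62 and 8.54 in Transwell (1.57 ± 0.11). ZG16, a lectin of the mucus layer, read 7.70, 7.14, 6.05 and 7.31 in the chip, against 10.05, 9.35, 9.86 and 9.13 in Transwell (-2.55 ± 0.33). MUC1 was higher by 0.94, and the secreted MUC2 differed by 0.16 without passing.

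Drug metabolism genes were lower in 14 of 33 cases (42.4%) and higher in 6. GSTA1, a glutathione transferase, read 7.28, 6.73, 7.26 and 7.54 in the chip, against 10.39, 10.27, 10.19 and 10.55 in Transwell (-3.14 ± 0.17). CYP3A5, a monooxygenase of many drugs, read 8.52, 8.38, 7.89 and 8.36 in the chip, against 5.10, 5.56, 5.87 and 5.56 in Transwell (2.77 ± 0.19). The groups lay apart by more than 2 in these genes, in opposite directions. The efflux pump ABCB1 was lower (-1.40), and ABCC1 was higher by 1.31 and ABCG2 by 0.94. CYP3A4 read below the array medians in both groups. Families such as the UGT2B, GSTA, AKR1C and CYP3A enzymes have close relatives, so probes may share signal between members. In the aryl hydrocarbon receptor pathway 4 of 11 were higher, CYP1A1, LMCD1 (1.98), TIPARP (1.22) and CYP1B1 (1.20, below the array medians in Transwell), and 0 lower, while the receptor AHR differed by 0.31 without passing.

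Hypoxia-inducible and glycolytic genes were higher in 14 of 31 cases (45.2%) and lower in 1, CA12, which did not pass without chip replicate 1 or 4 or without Transwell replicate 1, 2 or 3, while 2 were lower without chip replicate 2. HK1, a hexokinase, read 6.76, 6.08, 6.28 and 6.37 in the chip, against 4.07, 4.24, 4.07 and 4.01 in Transwell (2.28 ± 0.15). ADM, adrenomedullin, was higher by 2.08, ENO2 by 2.06 and ANKRD37 by 1.35. The glycolytic genes PGK1 (0.15), LDHA (0.02) and GAPDH (0.08) did not pass. Cholesterol synthesis was divided, with 5 of 20 higher (25.0%) and 6 lower (30.0%), against 11.8% and 14.4% of all genes. INSIG1, the sterol-regulated brake on this pathway, read 11.51, 10.66, 10.64 and 11.24 in the chip, against 9.45, 9.37, 9.48 and 9.47 in Transwell (1.57 ± 0.19), and PMVK was lower (-1.26).

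Fatty acid oxidation was divided in another way. CPT1A, the carnitine transferase that admits fatty acids to mitochondria, read 9.02, 9.16, 9.55 and 9.31 in the chip, against 7.50, 7.69, 7.37 and 7.73 in Transwell (1.69 ± 0.14). PDK4, the kinase that restrains pyruvate oxidation, read 4.74, 5.59, 6.13 and 6.58 in the chip, against 3.41, 2.98, 3.20 and 3.24 in Transwell, where it lay below the array medians (2.55 ± 0.32). The carnitine carrier SLC25A20 (-1.27) and the dehydrogenases HADH (-1.16) and ACADM (-1.07) were lower. Of 24 genes in all 6 were higher (25.0%) and 9 lower (37.5%). Of 16 iron genes 3 were higher (18.8%) and 5 lower (31.2%), against 11.8% and 14.4% of all genes. The lower ones included SLC11A2, the importer DMT1 (-1.51), and SLC46A1, a folate transporter that can also carry haem (-0.98). The lower iron genes numbered 3 without chip replicate 2 or 3 or without Transwell replicate 1, 2 or 3. Of 24 nuclear-encoded respiratory chain genes 0 were higher and 6 lower (25.0%), with a median of -0.09, and only 1 to 4 were lower when any array was left out and 1 after centring on the 75th percentile. The fewest, 1, came without Transwell replicate 3, and 2 came without chip replicate 2 or 3 or Transwell replicate 1, 2 or 4.

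Cell cycle genes were higher in 17 of 34 cases (50.0%) and lower in 3. CDC20, an activator of the anaphase-promoting complex, read 8.69, 8.80, 8.91 and 8.74 in the chip, against 7.56, 7.44, 7.36 and 7.65 in Transwell (1.28 ± 0.12). BUB1 was higher by 1.28 and NUSAP1 by 1.22, both of mitosis. The replication helicase genes MCM2 (-0.20), MCM4 (-0.17) and MCM7 (-0.09) did not pass, nor did the proliferation marker MKI67 (0.26). The cyclin CCND2 (-0.78) and the kinase CDK4 (-0.68) were lower, with MCM3 (-0.62), which did not pass without chip replicate 4 or any 1 Transwell array. Of 21 genes often named as p53 targets 8 were higher (38.1%) and 6 lower (28.6%), against 11.8% and 14.4% of all genes. With 1 array left out 4 to 6 were lower, and the part of p53 in these genes was not tested. BBC3, the death activator PUMA, read 6.20, 5.70, 5.58 and 6.16 in the chip, against 4.07, 3.13, 3.69 and 4.12 in Transwell (2.16 ± 0.23). PLK3 was higher by 2.56, GDF15, a stress cytokine, by 2.54 and CDKN1A, the p21 inhibitor, by 1.06, whereas MDM2 (-0.65), TIGAR (-0.89) and TP53I3 (-1.38) were lower. Of 20 apoptosis genes 7 were higher, led by TNFRSF12A (2.53), and 3 lower. TNFSF10, the death ligand TRAIL, read 5.39, 5.56, 5.43 and 5.95 in the chip, against 7.68, 7.01, 7.42 and 7.14 in Transwell (-1.73 ± 0.18), and its receptor TNFRSF10B was higher by 1.58.

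By class of RNA, of 17025 protein-coding genes 2418 were higher (14.2%) and 2911 lower (17.1%), and 4300 of them read below the array medians in both groups. Of 1989 long noncoding RNAs 114 were higher (5.73%) and 139 lower (6.99%), and 1155 read below the array medians in both groups. Whether the classes differ in how often they pass was not tested. Of 213 small nucleolar RNAs, guides of RNA modification, 3 were higher (1.41%) and 32 lower (15%), against 11.8% and 14.4% of all genes. In chip replicate 1 the small nucleolar RNAs read 0.22 above the mean of the other chip arrays at the median. Without that array 6 were higher and 46 lower. The part of that array's RNA in these counts was not tested.

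The pair that shares the ZnO dispersion medium, without the metal, is a chip and a Transwell group of 4 arrays each, under the names chip ZnO-control and Transwell ZnO-control. Its arrays are separate from the exposed ones. Chip ZnO-control against Transwell ZnO-control gave 2655 genes higher (11.9%) and 3252 lower (14.5%). Of the passing genes of the exposed pair 76.2% also passed in the same direction in the medium pair, which is 75.7% of that pair's 5907, and 0 passed in opposite directions. FABP2, at -5.48 with ZnO, differed by -5.0 in the control medium, CPS1 by -4.65 there, SI by -3.83, and PLAUR by 3.86. By list, 22 immediate early genes were higher in the medium pair (23 with ZnO) and 16 of NF-kB signalling (14). So were 16 YAP targets (15), 13 interferon-stimulated genes (14), 12 integrated stress response genes (13) and 12 NRF2 targets (14). For heat shock genes the count was 6 (10) and for metallothioneins 5 (8), and 11 brush border hydrolases were lower (10). The difference between the pairs was tested itself, and 0 of 22395 genes passed by limma, with 1297 (5.79%) at an unadjusted p below 0.05 and a median standard error of 0.23. A fit of all 8 groups of the series passed 1 gene, MT1B.

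MT1B stood at the head of that test. It read 2.70, 2.62, 2.54 and 5.73 in chip ZnO-control, against 2.11, 2.09, 2.25 and 1.56 in Transwell ZnO-control, so the exposed pair's difference exceeded the medium pair's by 4.73 ± 0.76 (adjusted p = 0.233, limma; 9.67e-06 to 0.833 over the alternatives). MT1B passed in the fit without chip ZnO-control replicate 4 (5.51 ± 0.40, adjusted p = 9.67e-06, limma). That array is itself the 1 control array with raised MT1B and the remaining control values lie below the array medians, so this value is neither an exact size nor support for the excess. MT1M read 4.35, 4.79, 3.20 and 7.20 in chip ZnO-control, with the same array highest, and its excess was 3.57 ± 0.91 (adjusted p = 0.736, limma; 0.123 to 0.905 over the alternatives). The excess was 1.99 ± 0.56 for MT1E, 1.24 ± 0.65 for MT1H and 1.02 ± 0.55 for MT1G, and none of these passed by limma under any alternative. MT2A differed by 0.62 in the exposed pair and by 0.89 in the medium pair. GADD45B with an excess of 1.25 ± 0.36, HMOX1 with 0.77 ± 0.19 and MYC with -0.69 ± 0.16 did not pass either (adjusted p = 0.736 each, limma).

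**Figure D5:**
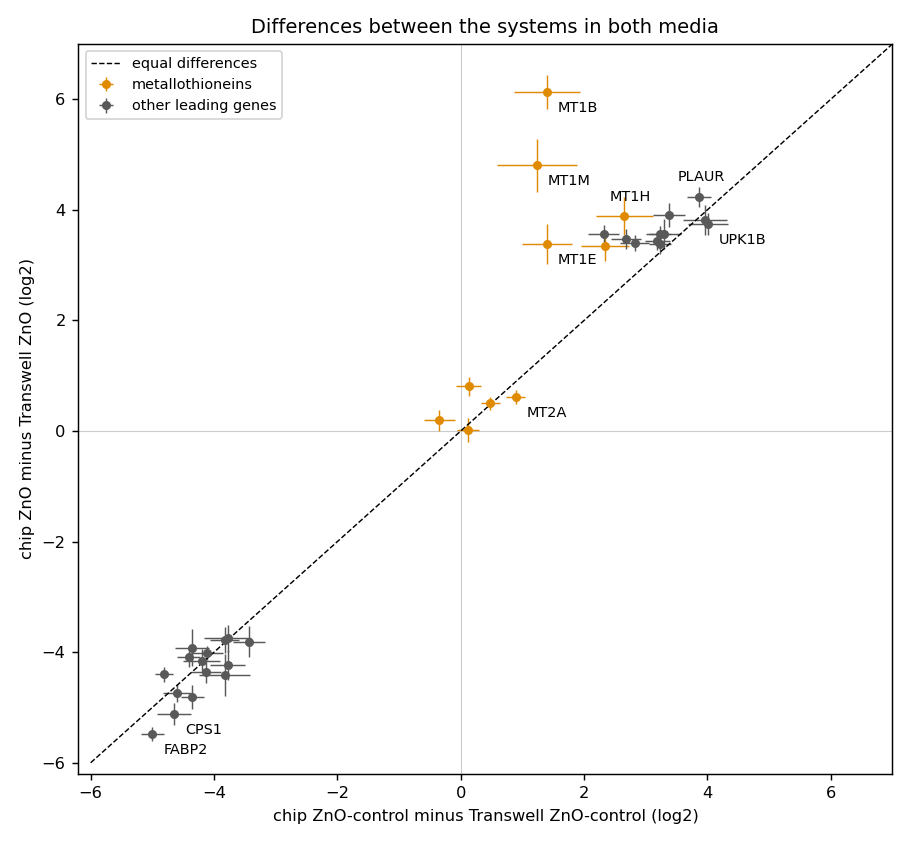
Log2 difference of chip minus Transwell with ZnO (y axis) against the same difference in the ZnO control medium (x axis) for the metallothioneins (orange) and the other leading genes (grey), with standard errors from limma as bars and equal differences as a dashed line. Most leading genes lie near the line. MT1B, MT1M, MT1E, GADD45B and MT1H lie above it by 1.24 to 4.73, and none of these passed the test of that excess in the 16 arrays of both pairs.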

How the data were processed

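Total RNA (100 ng per sample) was labelled for an Affymetrix whole-transcript array, per the labels' protocols. The values deposited by the authors are log2 values from RMA, a tool named in the submitters' processing notes without a version, and the build was not given in the sources used here. This normalisation brings the distributions of values over arrays close together, so a change shared by most genes would largely not show. They were not made equal, with 75th percentiles of the ZnO arrays from 5.41 to 5.58. With quantile normalisation repeated on the ZnO arrays, 2677 genes were higher and 2874 lower in the chip. There were 53617 probe sets for each of 31 arrays, and 0 values were missing. Names came from the platform annotation, for the 23871 probe sets with 1 gene (1842 had several and 27904 none). Symbols were updated by gene identifier with the RefSeq table of GRCh38.p14, which matched 22569 of these probe sets. The brightest probe set over all arrays was kept for the 632 genes with several, leaving 22395 genes.

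The 8 ZnO arrays were fitted with limma 3.58.1 in R 4.3.3, with 1 mean per group (residual degrees of freedom 6, prior 4.47) and the Benjamini-Hochberg adjustment over all genes, and the code was tested on simulated data. The number of arrays limits the precision. The gene lists and members were chosen with earlier results of these data known, and genes may be in several lists. Named genes were the 15 largest passing rises and falls with separated replicates and the higher group above the array medians, up to 5 passing members per list and direction, and further members where a list needed them. Alternatives changed the samples fitted, block, variance prior, array weights, dim-gene filter, probe-set rule, scaling, fold threshold and arrays left out. The replicate numbers were not used to pair arrays.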

Additional observations from a re-analysis of the deposited data

Results flagged for a closer look

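Among 81 genes whose values were given or that head the comparison, each group of 4 arrays was searched for 1 array far from the other 3, by Dixon's criterion on the gap over the range. Chance gives about 1 in 20 groups, and 8 of 162 groups were found, 2 in the chip and 6 in Transwell. In the chip, replicate 2 read 6.25 for IFIT2, against 5.22 to 5.35 in the others, and replicate 1 read 7.29 for QSOX1, against 7.77 to 7.86. In Transwell, replicate 1 read 4.76 for HSPA6, against 3.53 to 3.70, and 8.31 for CDX2, against 7.81 to 7.89. Transwell replicate 2 read 9.56 for HSPB1, against 9.35 to 9.37, and 5.27 for SLC5A1, against 5.72 to 5.79. Transwell replicate 4 read 7.35 for HSD3B1, against 7.53 to 7.56, and 10.92 for VIL1, against 11.12 to 11.15. All 8 genes differed between chip and Transwell in every fit with 1 array left out.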

How the results depend on the processing

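The 30 leading genes passed under every alternative run, and no named gene reversed. The 5868 passing genes numbered 4765 to 5689 with 1 array left out (2194 to 2672 higher, 2552 to 3083 lower). Tested against a fold of 1.5, 1217 passed, 604 higher and 613 lower, since a larger difference is asked for. Of 421 passing list members or leading genes, 240 did not pass that test, 61 did not pass under some other alternative and 55 with some array left out, and of 339 list members that did not pass, 65 passed under some alternative. The test of the exposed pair's difference against the control-medium pair's passed 0 genes, 1 with all 8 groups in the fit and 0 to 1 with an array left out, the 1 being without chip ZnO-control replicate 4. The replicate numbers did not pair the arrays, with correlations of same-numbered deviations of -0.044, 0.084, -0.031 and -0.006, and with a replicate block 2386 were higher and 2903 lower and 0 passed in the test between the pairs. Dim genes limit the sizes of differences, since signal over background was not used.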
